A study of Mus musculus with 4 samples.

Results

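The genes described here are 4 globin genes and 3 neutrophil granule genes, 7 of the 10225 genes on a 2-colour cDNA array of mouse spinal cord. They were looked up by symbol in the annotation of the array, and every spot assigned to 1 gene was taken, which gave 12 of 18511 such spots. The globins were Hbb-b1 and Hba-a2, chains of adult haemoglobin, and Hba-x and Hbb-bh1, chains of embryonic haemoglobin. The granule genes were Mpo, S100a8 and Ltf. Hbb-b1, Hba-a2, Hba-x, Hbb-bh1 and S100a8 had 1 spot each, Mpo had 3 and Ltf had 4. The genes were chosen with their ratios and the presence of their values on these arrays known. The choice was made mainly for their low ratios on the second AT-EAE array and the high globin ratios on the first control array. Their values are therefore given as a description, with no test.

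The study measured cord RNA of adult female SJL/J mice with AT-EAE and of control mice of the same strain and sex. In AT-EAE (experimental autoimmune encephalomyelitis by adoptive transfer), recipients are given T cells that react to myelin, which models multiple sclerosis. Each extract was pooled from 2 mice, so single animals cannot be seen. Each group had 4 extracts on 2 arrays, and the 2 channels of each array carried RNA of the same group, extracts 1 and 2 on array 1 and extracts 3 and 4 on array 2. The sources used here do not give the stage of disease, the treatment of the control mice, or whether blood was flushed from the vessels before dissection.

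The design decides what a ratio can show. A value compares 2 pools of the same group, not AT-EAE with control cord, and no level of any gene in either group can be read from it. The sources used here do not give the channel in the numerator, and the numbers of the extracts are arbitrary, so a negative ratio says only that a gene lay lower in a given extract of the pair than most genes did. What can be compared between genes is whether they lie on the same side of an array's median, and how far from it. Where a group is given 2 values, they are of its arrays 1 and 2 in that order. All ratios below are on the log2 scale, assuming that base, with the median over genes of the array subtracted. That median was 0.0087 and -0.074 on AT-EAE arrays 1 and 2, and -0.0060 and 0.0040 on control arrays 1 and 2.

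As background, haemoglobin is a tetramer of alpha-type and beta-type chains. In the adult mouse both are made in maturing red cells, while Hba-x and Hbb-bh1 serve the primitive red cells of the embryo. Mouse reticulocytes in the circulation still carry globin mRNA, so blood left in a tissue brings adult globin transcripts with it. Mpo encodes myeloperoxidase, an enzyme of the primary granules whose mRNA is made mostly by neutrophil precursors in bone marrow. Ltf encodes lactoferrin, an iron-binding protein of the secondary granules, and S100a8 encodes a subunit of calprotectin, abundant in mature neutrophils. In EAE, neutrophils also enter the cord with other leukocytes. In bulk RNA, fewer cells of a type and less RNA per cell cannot be told apart.

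The sequences upstream of 5 of the 7 genes were in the RefSeq promoter table (build GRCm38.p6), and they are shown because the adult globin and granule genes lay low together on 1 array. Each run is the 250 bases before the annotated start, 5′ to 3′, all on the plus strand. Capitals mark matches on either strand to the erythroid core GATAA, the promoter box TATAA, the upstream element CCAAT and the core CACCC of sites for KLF factors, and no matches overlapped.
Hba-a2, chr11:32296242-32296491: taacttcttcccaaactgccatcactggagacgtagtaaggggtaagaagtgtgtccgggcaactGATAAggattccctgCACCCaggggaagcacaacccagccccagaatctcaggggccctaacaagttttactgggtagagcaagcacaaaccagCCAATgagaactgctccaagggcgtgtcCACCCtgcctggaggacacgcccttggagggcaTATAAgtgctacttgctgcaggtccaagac
Hba-x, chr11:32276350-32276599: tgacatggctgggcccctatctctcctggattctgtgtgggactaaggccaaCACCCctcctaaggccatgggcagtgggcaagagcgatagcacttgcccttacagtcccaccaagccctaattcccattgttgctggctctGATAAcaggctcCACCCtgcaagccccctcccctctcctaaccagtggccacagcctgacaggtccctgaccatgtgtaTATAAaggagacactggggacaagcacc
Mpo, chr11:87793534-87793783: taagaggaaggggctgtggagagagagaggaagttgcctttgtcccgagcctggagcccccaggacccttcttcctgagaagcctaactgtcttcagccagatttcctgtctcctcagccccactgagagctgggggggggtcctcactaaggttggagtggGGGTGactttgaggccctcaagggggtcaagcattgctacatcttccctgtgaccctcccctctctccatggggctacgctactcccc
S100a8, chr3:90668821-90669070: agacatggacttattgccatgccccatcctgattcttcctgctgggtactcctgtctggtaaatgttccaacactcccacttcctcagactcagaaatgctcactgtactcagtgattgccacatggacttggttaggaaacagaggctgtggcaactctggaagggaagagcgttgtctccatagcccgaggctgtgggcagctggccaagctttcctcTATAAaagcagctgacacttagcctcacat
Ltf, chr9:111019042-111019291: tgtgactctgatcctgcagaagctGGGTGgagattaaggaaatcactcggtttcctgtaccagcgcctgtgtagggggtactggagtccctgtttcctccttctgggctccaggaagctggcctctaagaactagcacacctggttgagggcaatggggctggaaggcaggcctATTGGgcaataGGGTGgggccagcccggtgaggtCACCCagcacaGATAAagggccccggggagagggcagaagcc

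The upstream sequences of both alpha-type globins held the GATA, TATA and KLF motifs. GATAA is the core that GATA1, the main erythroid transcription factor, recognises, and CACCC is the core of sites for the erythroid factor KLF1. TATAA began at -30 in Hba-a2 and at -28 in Hba-x, counted back from the base before the start as -1, and at -30 in S100a8. Ltf held a GATAA match at -31, a CCAAT match and 3 CACCC matches, whereas Mpo held 1 CACCC match and S100a8 no match beyond TATAA. Over the 32851 promoters of the table, 22.6% held GATAA, 22.8% TATAA, 33.8% CCAAT and 52.0% CACCC in the same window, so each match is a description of the letters and marks no binding site. Hba-a1, the other adult alpha globin gene and a neighbour of Hba-x and Hba-a2 on chromosome 11, had the same sequence as Hba-a2 over 297 of 297 bases when the windows were set 3 bases apart. Because Hba-a1 and Hba-a2 are near-identical copies, a cDNA spot assigned to Hba-a2 may report both, and its value is uncertain in that sense. The same holds for Hbb-b1 and the other adult beta globins.

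Over the whole arrays, 15635 and 10788 of 28704 spots had a value on AT-EAE arrays 1 and 2, against 21139 and 18565 on control arrays 1 and 2. Between spots of the same gene, the standard deviation of the ratio was 0.24 and 0.36 on the AT-EAE arrays and 0.24 and 0.28 on the control arrays, which is the only error available for a spot, since no array was repeated. AT-EAE array 2 thus had the fewest values and the widest scatter. Pearson's r between arrays over shared spots ran from -0.0064 to 0.35, a description in which spots share slides and dyes. Of 6 spinal cord genes that the arrays held, among them the myelin gene Mbp and the neurofilament genes Nefl and Nefm, 4 had a value on all 4 arrays, and none of the 6 lacked a value everywhere.

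The adult globins had a value on every array, and they were the highest members on control array 1 and the lowest on AT-EAE array 2. Hbb-b1 was at -0.048 and -0.82 on AT-EAE arrays 1 and 2, and at 0.55 and 0.23 on control arrays 1 and 2. Hba-a2 was at -0.019 and -0.80 in AT-EAE, and at 0.47 and 0.28 in control. The Euclidean distance between the beta and the alpha chain gene over the 4 arrays was 0.099, less than the scatter between spots of a gene on any array. Both lay near the median on AT-EAE array 1, far below it on AT-EAE array 2 and above it on both control arrays.

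On AT-EAE array 2, 81 of 5616 measured genes lay below Hbb-b1 and 95 below Hba-a2. On control array 1, 47 of 8818 genes lay above Hbb-b1 and 82 above Hba-a2. The mean of the adult globins was -0.81 on AT-EAE array 2, a 1.75-fold difference between extracts 3 and 4 if the base was 2, and 0.51 on control array 1, a 1.42-fold difference between extracts 1 and 2. Adult globin ratios far from the median were seen on an array of each group. The genes were chosen mainly for these ratios, so nothing is read from them.

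The absolute ratio of the adult globins averaged 0.42 ± 0.55 on the AT-EAE arrays and 0.38 ± 0.18 on the control arrays (SD, n = 2 arrays each). The difference of 0.040 was smaller than the spread between arrays, and it turned to -0.35 without AT-EAE array 2 and to -0.088 without control array 2. Without AT-EAE array 1 it was 0.43, and without control array 1 it was 0.17. Each group value therefore rested on single arrays.

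**Figure D1:**
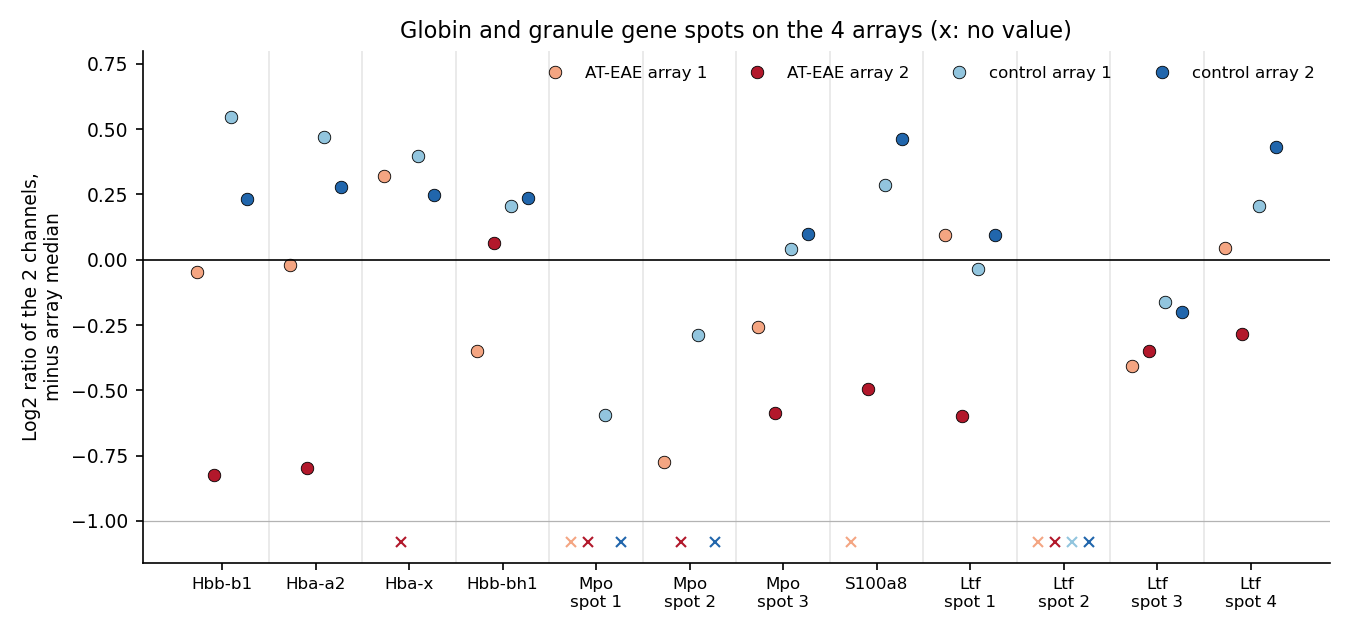
Log2 ratio of the 2 channels minus the array median (y axis) for each of the 12 spots of the 7 genes (x axis), with AT-EAE arrays in orange and red and control arrays in light and dark blue; crosses below the grey line mark spots without a value. Hbb-b1 and Hba-a2 lie near -0.8 on AT-EAE array 2 and above 0 on both control arrays, and all 5 granule gene spots with a value on AT-EAE array 2 lie below 0.

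Spots whose annotation joins a member to other genes were not assigned to any gene and were not among the 12. They carry the same kind of clone and were set beside the adult globins after their values had been seen. Of these, 8 spots from 3 clones were annotated to Hba-a2 together with Hba-a1 and a histone gene, and 6 of the 8 held the same clone. On AT-EAE array 2, 5 of the 8 had a value, from -0.85 to -0.38 with a median of -0.73. On AT-EAE array 1, 7 had a value, from -0.075 to 0.35 with a median of -0.020. On control array 1 all 8 lay between 0.33 and 0.91, with a median of 0.80, and on control array 2 between -0.019 and 0.70, with a median of 0.43. The medians of these spots had the order of arrays seen for Hba-a2, with a larger median on control array 1, while single spots such as the lowest on both control arrays departed from it. Over the 6 spots of the same clone, the ratio was -0.65 ± 0.24 on AT-EAE array 2 (SD, n = 3 spots) and 0.75 ± 0.22 on control array 1 (SD, n = 6 spots). The standard deviation between spots of a gene in general was 0.36 on AT-EAE array 2 and 0.24 on control array 1.

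A single spot annotated to both Hbb-b1 and Hbb-b2 did not follow Hbb-b1. It was at 0.41 and 0.34 on AT-EAE arrays 1 and 2, and at -0.0068 and 0.40 on control arrays 1 and 2. On AT-EAE array 2 it lay on the opposite side of the median from the Hbb-b1 spot, and on control array 1 it was at the median while the Hbb-b1 spot was high. With the spots of several genes added, the adult globin mean was -0.46 on AT-EAE array 2 and 0.50 on control array 1, against -0.81 and 0.51 without them. It was 0.10 on AT-EAE array 1 and 0.35 on control array 2, against -0.034 and 0.26 without them, so it changed side on AT-EAE array 1. Most of the shift on AT-EAE array 2 came from this spot, since the alpha spots of several genes averaged -0.66 there.

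The embryonic globins had 1 spot each. They lay above the median with the adult chains on the control arrays, but differed from them on the AT-EAE arrays. On AT-EAE array 2 only Hbb-bh1 could be compared. Hba-x was at 0.32 on AT-EAE array 1, had no value on AT-EAE array 2, and was at 0.40 and 0.25 on control arrays 1 and 2. Hbb-bh1 was at -0.35 and 0.063 on AT-EAE arrays 1 and 2, and at 0.21 and 0.24 on the control arrays. On AT-EAE array 1 they lay on opposite sides of the median, and on AT-EAE array 2 Hbb-bh1 was near the median where Hbb-b1 and Hba-a2 were at about -0.8. On the control arrays all 4 globins described here lay above the median, between 0.21 and 0.55 on array 1 and between 0.23 and 0.28 on array 2. Whether a spot for an embryonic chain also binds adult globin cDNA was not tested.

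Mpo was measured by 3 spots, which differed among themselves. Its spot 1 had a value on control array 1 alone, at -0.60. Its spot 2 had values on the first array of each group, -0.77 in AT-EAE and -0.29 in control. Its spot 3 had values everywhere, at -0.26 and -0.59 on AT-EAE arrays 1 and 2 and at 0.043 and 0.099 on control arrays 1 and 2. The Mpo mean on AT-EAE array 1 was -0.51 ± 0.37 (SD, n = 2 spots), and on control array 1 it was -0.28 ± 0.32 (SD, n = 3 spots). The Mpo ratio on control array 1 thus depended on the spots used, with spot 3 alone above the median and the mean of all 3 below it.

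S100a8 had no value on AT-EAE array 1 and was at -0.49 on AT-EAE array 2, while it was at 0.29 and 0.46 on control arrays 1 and 2. The S100a8 spot was thus high on the same arrays as the adult globins and low on the array where they were low. S100a9, which encodes the partner of S100a8 in calprotectin and is not among the 7 genes, was at -0.035 on AT-EAE array 1, had no value on AT-EAE array 2, and was at 0.052 and 0.62 on the control arrays. The partner genes were therefore both measured on the control arrays only, both with their higher ratio on control array 2.

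Ltf had 3 measured spots, while its spot 2 had no value on any array. Spot 1 was at 0.096 and -0.60 on AT-EAE arrays 1 and 2 and at -0.037 and 0.093 on control arrays 1 and 2. Spot 3 was below the median on every array, at -0.41 and -0.35 in AT-EAE and -0.16 and -0.20 in control. Spot 4 was at 0.043 and -0.29 in AT-EAE and at 0.20 and 0.43 in control. The Ltf mean was -0.41 ± 0.17 on AT-EAE array 2 (SD, n = 3 spots), and on the other arrays it lay within 0.11 of the median, below the standard deviation over its own spots.

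The question behind these genes is whether adult globins and granule genes moved together, as they might if pools differed in blood. They did so on AT-EAE array 2, where both adult globin spots and all 5 measured granule spots lay below the median. The granule spots there ran from -0.60 to -0.29 and the granule mean was -0.50, against -0.81 for the adult globins, where spots of a gene scattered by 0.36. Of the 8 member spots with a value on that array 4 were at or below -0.5, where 7.77% of all 1-gene spots were at or below -0.5 and 10.7% at or above 0.5. The genes were chosen for these values, so nothing is read from that count, and the part of blood content in these ratios was not tested. On AT-EAE array 1 the adult globins were at -0.034 and the granule mean was -0.30, with 3 of 5 granule spots below the median. The 1 member spot at or below -0.5 on that array was Mpo spot 2, against 4% of all spots, and no member spot was at or above 0.5, against 0.735%.

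On control array 1 the adult globins were at 0.51 and the granule mean was 0.0029, with 3 of 7 granule spots above the median and 4 below. The granule genes differed among themselves there, with S100a8 at 0.29, Ltf at 0.0025 and Mpo at -0.28. After subtraction of the mean ratio of the AT-EAE arrays, spot by spot, the adult globins were at 0.94 and the granule genes at 0.52, both above the median. That subtraction brings in the low ratios of AT-EAE array 2, for which the genes were mainly chosen. It also changes the spots used, since Mpo spot 1, at -0.60 on control array 1, had no AT-EAE value and dropped out. S100a8 was set against AT-EAE array 2 alone, and Mpo spot 2 against AT-EAE array 1 alone. Whether the channels differed in a way shared by the arrays was not tested. On control array 1, 1.2% of all 1-gene spots were at or above 0.5, as was 1 member spot, Hbb-b1, and 3.05% were at or below -0.5, as was 1, Mpo spot 1.

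On control array 2 the adult globins were at 0.26 and the granule genes at 0.22, with 4 of 5 granule spots above the median. Both values lay within the scatter of 0.28 between spots of a gene on that array. No member spot was at or beyond 0.5 in either direction there, where 1.63% of spots were at or above 0.5 and 7.25% at or below -0.5. All 3 granule genes lay above the median there, as the adult globins did, and on AT-EAE array 1 both measured granule genes lay below it with the adult globins near it. AT-EAE array 2 was the 1 array on which every measured granule spot lay on the side of the adult globins.

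**Figure D2:**
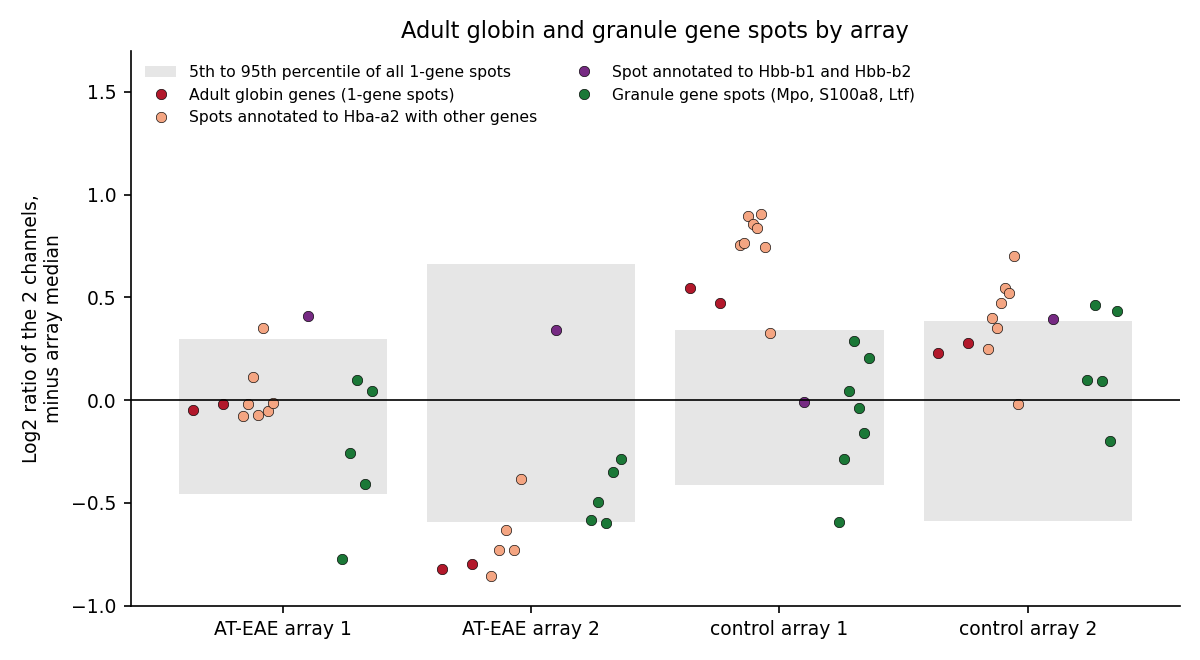
Spot ratios (log2, minus the array median, y axis) on the 4 arrays (x axis) for the adult globin genes in dark red, the 8 spots annotated to Hba-a2 with other genes in orange, the spot annotated to Hbb-b1 and Hbb-b2 in purple and the granule genes in green; grey bars span the 5th to the 95th percentile of all 1-gene spots. On AT-EAE array 2 the red, orange and green points all lie below 0, and on control array 1 the red and orange points lie above 0.3 while the green ones spread from -0.60 to 0.29.

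The absolute ratio of the granule genes averaged 0.40 ± 0.14 on the AT-EAE arrays and 0.11 ± 0.16 on the control arrays (SD, n = 2 arrays each). The difference was 0.29, and it was 0.19 without AT-EAE array 2, 0.18 without control array 1, 0.38 without AT-EAE array 1 and 0.40 without control array 2. These are absolute values of a mean over genes, and on control array 1 Mpo and S100a8 cancel in it. Averaged after taking absolute values gene by gene, they were at 0.40 ± 0.14 in AT-EAE and 0.21 ± 0.024 in control (SD, n = 2 arrays each), a difference of 0.19, with 0.30 and 0.50 on the AT-EAE arrays and 0.19 and 0.22 on the control arrays. A set of 2 arrays against 2 cannot give a 2-sided exact permutation p below 0.333, and no test was made. On AT-EAE array 1 the granule mean rested on Mpo and Ltf, since S100a8 had no value there. The standard deviation over all 1-gene spots was 0.26 and 0.39 on AT-EAE arrays 1 and 2, and 0.24 and 0.31 on control arrays 1 and 2. The widest array, AT-EAE array 2, is also the one whose low ratios were known when the genes were chosen. The difference in absolute ratio is therefore a description only.

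Other genes of red cells were set beside the globins from a list of 42, of which 32 were on the arrays and 16 had values on all 4. Beyond the 4 globins described here, their medians stayed near that of the array on every array. The others include a further globin gene, Hbb-y, with 4 spots. It was at 0.23 on AT-EAE array 1 and at 0.23 and -0.013 on control arrays 1 and 2, with no value on AT-EAE array 2. The 14 others measured on AT-EAE array 2 had a median of -0.042, with 8 below and 6 above, and those on AT-EAE array 1 a median of 0.0014. On control array 1, where the adult globins were high, 15 of 22 lay above and 7 below, at a median of 0.044, and on control array 2 10 of 17 lay above and 7 below, at 0.068. By construction 50% of all genes lie on either side of each array's median. The 4 globins described here were chosen with their ratios known, so nothing is read from the gap between them and the other red cell genes.

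Single red cell genes on AT-EAE array 2 went both ways. Tfrc, the transferrin receptor, was at -0.40 there, and at -0.064 on AT-EAE array 1, against -0.11 and -0.00096 on control arrays 1 and 2. Blvrb, which encodes a biliverdin reductase, was at 0.10 and 0.46 in AT-EAE and at 0.13 and 0.26 in control, and the carbonic anhydrase gene Car2 was at 0.14 and 0.45 in AT-EAE and at 0.18 and 0.27 in control. Both are also expressed outside red cells, Car2 in oligodendrocytes among others. Ank1, the ankyrin of the red cell membrane, was at -0.56 and had no value on any other array. It was the 1 of these 14 genes at or below -0.5, while 7% of all genes on that array were.

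The heme synthesis enzymes Fech, Alad, Urod and Cpox lay between -0.069 and 0.24 on AT-EAE array 2 and between -0.22 and 0.0014 on AT-EAE array 1. They lay between 0.023 and 0.17 on control array 1 and between -0.18 and 0.12 on control array 2. Car1, the carbonic anhydrase of red cells, was at 0.10 and -0.054 in AT-EAE and at -0.25 and 0.094 in control. The blood group genes Rhd and Ermap followed neither pattern. Rhd was at 0.18 and -0.036 in AT-EAE and at -0.11 and -0.015 in control, and Ermap was at 0.13 and -0.048 in AT-EAE and at -0.18 and 0.24 in control. Of the remaining genes measured throughout, Bpgm, which makes the regulator of oxygen affinity in red cells, was at -0.0017 and -0.13 in AT-EAE and 0.14 and 0.22 in control. Prdx2, a peroxidase abundant in red cells, was at 0.018 and 0.014 in AT-EAE and 0.063 and 0.33 in control, and Aqp1, a water channel of red cells and other tissues, was at -0.28 and -0.26 in AT-EAE and -0.22 and -0.063 in control. None of these genes measured throughout lay at or below -0.5 on AT-EAE array 2 or at or above 0.5 on control array 1.

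Other neutrophil genes came from a list of 31, of which 16 were on the arrays and 7 had values on all 4. On AT-EAE array 2, the 7 measured beyond the members had a median of 0.057, with 5 above and 2 below. Mpo, S100a8 and Ltf lay at -0.41 or below there, but they were chosen with those low ratios known. Nothing is therefore read from the gap between them and the other neutrophil genes. Lcn2, which encodes another protein of the secondary granules, was at -0.21 and 0.052 in AT-EAE, against 0.16 and -0.20 in control. Cd177, a neutrophil surface protein, was at 0.16 and -0.11 in AT-EAE and at -0.18 and 0.12 in control. Every one of these ratios was smaller than the standard deviation between spots of a gene on its array.

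On AT-EAE array 1 this order was different, and 8 of the 9 other neutrophil genes lay below the median, at a list median of -0.21. Cybb, the catalytic subunit of the phagocyte NADPH oxidase, was at -0.50 and 0.12 on AT-EAE arrays 1 and 2 and at 0.032 and 0.081 on the control arrays. Cyba, its partner subunit, was at -0.22 and 0.057 in AT-EAE and at -0.053 and 0.18 in control. Itgam, the integrin chain CD11b, was at -0.13 and -0.20 in AT-EAE and at -0.28 and -0.023 in control. These genes are shared with macrophages and microglia. The macrophage list, with 9 genes measured on AT-EAE array 1, had a median there of -0.29 and its lowest ratio for the lysozyme gene Lyz2 at -1.02, and on AT-EAE array 2 a median of 0.018 over 8 genes. Its part in the neutrophil values was not tested. On the control arrays the other neutrophil genes had medians of -0.011 and 0.081.

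**Figure D3:**
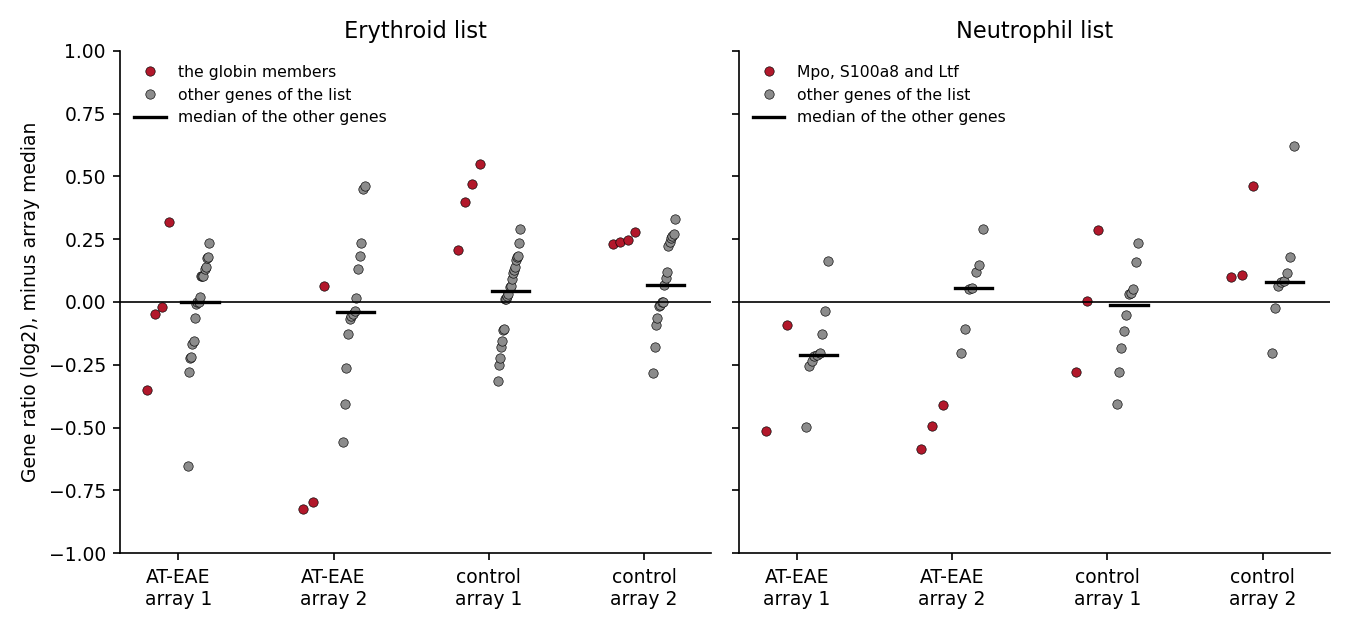
Gene ratios (log2, minus the array median, y axis) on the 4 arrays (x axis) for the erythroid list on the left and the neutrophil list on the right, with the genes described here in red, the other list genes in grey and the median of the others as a black bar. On AT-EAE array 2 Hbb-b1, Hba-a2, Mpo, S100a8 and Ltf lie below -0.4, while the other genes have medians of -0.042 and 0.057. The genes in red were chosen with their ratios on that array known.

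The presence of values was known when the genes were chosen, so it is given as a description, and nothing is read from its difference from all spots. The 2 adult globin spots had a value on every array. Of the 12 member spots 9 and 8 had a value on AT-EAE arrays 1 and 2, and 11 and 9 on control arrays 1 and 2, which is 75% and 66.7% against 91.7% and 75%. Values on all 4 arrays were held by 7 of the 12, where 39.9% of all 1-gene spots held them. Over all 1-gene spots, 61.7% and 42.1% had a value on the AT-EAE arrays, and 80.9% and 72.9% on the control arrays. The mean share of member spots was 70.8% ± 5.89 in AT-EAE and 83.3% ± 11.8 in control (SD, n = 2 arrays each), a difference of -12.5 percentage points, about the size of the spread between control arrays. Leaving out 1 array moved this difference to -16.7 without AT-EAE array 1, -8.33 without AT-EAE array 2, -4.17 without control array 1 and -20.8 without control array 2. For all 1-gene spots the difference was -25.0 points.

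The granule spots with a value numbered 5 of 8 on each AT-EAE array, against 7 and 5 on the control arrays. The missing ones were not the same throughout, since Mpo spots 1 and 2 and S100a8 dropped in and out while Ltf spot 2 was always empty. The 18 spots of other neutrophil genes had values in 77.8% and 55.6% of cases on the AT-EAE arrays, against 61.1% and 44.4% on the control arrays. The AT-EAE mean was thus 13.9 points higher, with standard deviations of 15.7 and 11.8 points between arrays of AT-EAE and control, while all 1-gene spots went the other way. Cybb, which is shared with macrophages and microglia, had values on 3 and 2 of its 3 spots in AT-EAE against 1 and 1 in control. Itgb2, Ncf4 and Lcn2 also had more spot values in AT-EAE. The single spots of Mmp9, S100a9 and Padi4 had a value on fewer AT-EAE arrays than control arrays. Among the other erythroid spots, 53.7% and 27.8% of 54 had a value in AT-EAE and 70.4% and 55.6% in control. What the authors required for a value is not given in the sources used here, so an empty spot cannot be read as an absent transcript.

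**Figure D4:**
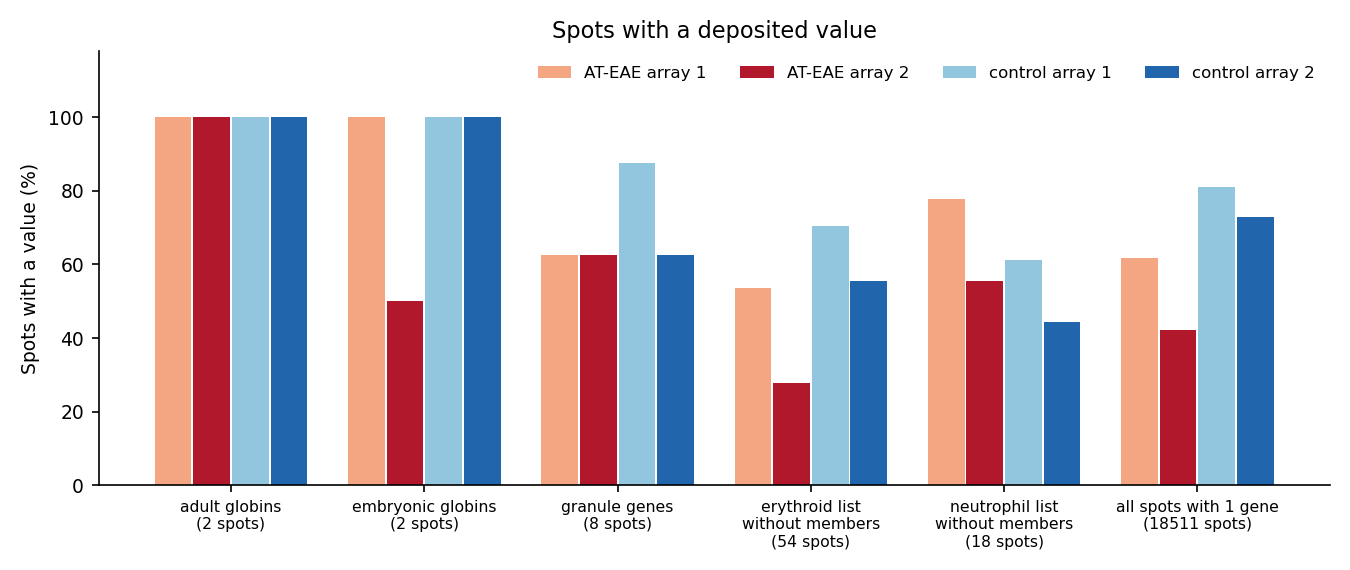
Percentage of spots with a deposited value (y axis, from 0) for each kind of gene (x axis, with its number of spots), with bars for the 2 AT-EAE arrays in orange and red and the 2 control arrays in light and dark blue. Both adult globin spots have a value on all 4 arrays, whereas all 1-gene spots range from 42.1% on AT-EAE array 2 to 80.9% on control array 1. The adult globins, embryonic globins and granule genes were chosen with the presence of their values known.

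The genes most like the adult globins were sought among 3553 genes with at least 2 spots and values on all 4 arrays, by Euclidean distance of their 4 ratios from the mean of Hbb-b1 and Hba-a2. The genes described here were left out of this search. The nearest 5 were Tle4, a transcriptional corepressor, at a distance of 0.24, Bcl11b, a transcription factor of T cells and neurons, at 0.33, Rpap3, an HSP90 co-chaperone, at 0.40, Mylpf, a myosin light chain of fast skeletal muscle, at 0.40, and Abhd14a at 0.42. Tle4 was at 0.062 and -0.74 on AT-EAE arrays 1 and 2 and at 0.31 and 0.19 on control arrays 1 and 2. The median distance over 5429 genes was 1.06. Measured apart from the search, Ltf was at 0.66, Mpo at 0.96 and Hbb-bh1 at 0.98 from the adult globins, each farther than Abhd14a. S100a8 and Hba-x have no such distance for want of a value on 1 array. None of the nearest 5 is a gene of the erythroid or neutrophil lists, but of the 18 other genes of those lists measured on all 4 arrays only 9 had the 2 spots that the search required. With 4 arrays and no repeats, such likeness describes these arrays only.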

How the data were processed

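The deposited values were 1 signed number per spot and array, read as a log2 ratio of the authors' normalized green and red signals, per the labels. Neither the base nor the numerator is stated, and base 2 was assumed. The sources used here do not give the background correction, spot filter, normalization method or software. Columns of no sample numbered 0.

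Of 28704 spots, 18511 had 1 gene, 937 several and 9256 none in the platform annotation. Through their gene identifiers, 18267 spots took the symbol of the RefSeq GRCm38.p6 table, and 244 kept that of the platform. The spots of a gene were averaged, the median over genes of the array was subtracted, and 0.5 on this scale was used to count large ratios. Named genes were the 7 members, the erythroid and neutrophil genes with values on all 4 arrays, the lowest and highest gene of each of 5 other lists on AT-EAE array 2, and the 5 genes nearest to the adult globins. Ank1, Hbb-y, Lyz2, S100a9, Itgb2, Ncf4, Mmp9, Padi4, Ppbp, Itgb3 and Gp1bb were named after their values were seen. The members and lists were chosen with earlier results of these data known. Array replicate numbers follow accession order, and a gene's error is the spread over spots, since p-values would need repeated arrays. The gene means and the distance search were tested on simulated data with less scatter, larger ratios and more spots per planted gene than the adult globins had here. That test therefore does not cover the search at the scatter and size of these ratios. Python 3.11.15 with numpy 2.4.6, pandas 2.3.3 and matplotlib 3.10.9 was used.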

Additional observations from a re-analysis of the deposited data

How the results depend on the processing

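Of 107 alternative values for the gene sets and group differences, 98 moved by less than the spread between spots or arrays and 9 by more. Some of the 98 could not move. A change of centring leaves the adult globins minus the granule genes as they were, and S100a9 had no value on AT-EAE array 2. With 1 spot per globin, a median over spots changes only the centring of the globins. The count of 98 is therefore a description only. After the mean ratio of the other group was subtracted, the adult globins were at -0.42 and -1.19 on AT-EAE arrays 1 and 2 and at 0.94 and 0.66 on control arrays 1 and 2, the granule genes at 0.52 and 0.59 on control arrays 1 and 2, the embryonic globins at -0.29 on AT-EAE array 1, and the adult globins minus the granule genes at -0.14 on AT-EAE array 1. This subtraction would remove any channel effect shared by the arrays, which was not tested, and by construction it adds the extract differences of the other group. It also changes the spots used, since a spot with no value in the other group drops out. With only spots measured on all 4 arrays, the embryonic globins were at -0.36 on AT-EAE array 1, since Hba-x drops out. For single genes, 105 values moved by less than that spread and 19 by more, 17 of them under the subtraction. With 1 array left out, the difference in absolute ratio, AT-EAE minus control, ran from -0.35 to 0.43 for adult globins and from 0.18 to 0.40 for granule genes, and that of the share of spots with a value from -20.8 to -4.17 points. With spots of several genes the share differed by -16.7 points. The alternatives with those spots or S100a9 added to the ratios, and the mean of absolute gene ratios, were chosen after seeing the data. No paired analysis was possible because the replicate numbers are an accession order, each array holds 1 group, and no result came from a test. Signal over background was not analysed here, and 2 arrays per group limit every group value.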

Other observations

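Genes of other blood cells were few on these arrays. Of 8 platelet genes on the arrays 4 had no value anywhere and 1 had values on all 4. That gene, Clec1b, a receptor of platelets and some myeloid cells, was at 0.052 and -1.04 on AT-EAE arrays 1 and 2 and at -0.45 and -0.22 on control arrays 1 and 2. The integrin gene Itgb3 was at -0.045 and -0.29 in AT-EAE and at -0.073 on control array 1, with no value on control array 2. The 3 platelet genes measured on AT-EAE array 2 were Ppbp, Itgb3 and Clec1b, and all lay below the median, at a list median of -0.54. On control array 1, where the adult globins were high, the 3 measured were Itgb3, Gp1bb and Clec1b, and all lay below it. Of all genes, 50% lie below the median of an array by construction.

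Of 6 lymphocyte genes 2 had values on all 4 arrays. The B cell gene Ms4a1 was at 0.057 and -0.29 on AT-EAE arrays 1 and 2 and at -0.16 and 0.12 on the control arrays, and the T cell receptor chain gene Cd247 was at 0.27 and -0.025 in AT-EAE and at 0.037 and 0.12 in control. The 4 endothelial genes measured on AT-EAE array 2 had a median of 0.17, from -0.11 for Tie1 to 0.20 for Cdh5. The adult globins were chosen with their low ratios there known, so nothing is read from the gap between them and the endothelial genes. In the macrophage list that array had its lowest ratio for Adgre1 at -0.27 and its highest for the Fc receptor gene Fcgr1 at 0.67. The single Fcgr1 spot was high on every array, at 0.47 on AT-EAE array 1 and at 0.53 and 0.46 on control arrays 1 and 2. In the spinal cord list the lowest and highest on AT-EAE array 2 were Nefm at -0.16 and Mbp at 0.093. The median of that list was -0.13 and -0.026 on AT-EAE arrays 1 and 2, and 0.076 and -0.34 on control arrays 1 and 2.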
